A study of Mus musculus with 24 samples.

Results

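The surfactant protein genes Sftpc, Sftpb, Sftpa1, Sftpd, and Sfta2 were followed in mouse alveolar epithelial cells (AECs). They were taken by name and make up 5 of the 55421 genes in the count table. Type 2 AECs (AEC2s) were isolated from Krt8+/+ (WT) mice and from Krt8-/- (KO) mice, which lack keratin 8 in all cells because the knockout is global. The RNA came from fresh AEC2s (day 0) and from cells kept for 1, 3, or 7 days in 2D culture on a stiff substrate with a laminin coat. Sample titles hold 3 date codes, read here as isolation dates and numbered 1 to 3. Each of the 8 groups of genotype and day holds 3 libraries, 1 for each code, and the study holds 24. Both genotypes carry each code, and the titles do not say what the codes stand for. The sources used here do not give the age or strain of the mice or how many animals went into an isolation.

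Surfactant is the film of phospholipid and protein that AEC2s secrete to lower surface tension at the air-liquid interface of the alveolus. SP-B (Sftpb) and SP-C (Sftpc) are small hydrophobic proteins that are cut from larger precursors, packed with phospholipid into lamellar bodies, and needed for the film to spread. SP-A (Sftpa1) and SP-D (Sftpd) are large hydrophilic collectins, which bind sugars on microbes and act in innate defense. Sfta2 encodes a small secreted protein of the lung that is named for its association with surfactant. Sftpc is the standard marker of the AEC2, whereas SP-A, SP-B, and SP-D are also made by club cells of the airways.

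In GRCm38, Sftpa1 (ENSMUSG00000021789) lies on chromosome 14 from 41131782 to 41136452 on the plus strand, and Sftpd (ENSMUSG00000021795) lies close by from 41172214 to 41185149 on the minus strand. Sftpc (ENSMUSG00000022097) is also on chromosome 14, from 70520949 to 70524081 on the minus strand. Sftpb (ENSMUSG00000056370) is on chromosome 6 from 72304610 to 72314371 on the plus strand. Sfta2 (ENSMUSG00000090509) is annotated on chromosome 17 from 35601549 to 35650571 on the plus strand, a span that also holds Gm9573 and Mucl3 but shares no exonic base with them. Promoters are shown as a description of the genes, and a link between them and the course of the genes in culture was not tested. RefSeq sequence of GRCm38.p6 was at hand for 3 of the 5 genes, Sftpa1, Sftpb, and Sfta2. The start sites are those of RefSeq, which differ from the GENCODE starts given above for Sftpa1, by a few bases, and for Sfta2, where the RefSeq start lies well inside the annotated span. The 250 bases before each start site follow, 5′ to 3′ on the strand of the gene, which is plus in each case, at chr14:41131538-41131787, chr6:72304360-72304609, and chr17:35649458-35649707, respectively. Capitals mark exact matches on either strand to CTCAAG, a core bound by NKX2-1, to CAAACA, a core bound by FOXA proteins, to TGACTCA, the AP-1 site, or to TATAAA, the TATA box.
Sftpa1: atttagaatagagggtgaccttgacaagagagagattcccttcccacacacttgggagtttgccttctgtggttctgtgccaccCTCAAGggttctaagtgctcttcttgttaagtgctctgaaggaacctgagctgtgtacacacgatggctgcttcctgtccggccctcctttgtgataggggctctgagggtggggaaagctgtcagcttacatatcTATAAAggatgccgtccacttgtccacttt
Sftpb: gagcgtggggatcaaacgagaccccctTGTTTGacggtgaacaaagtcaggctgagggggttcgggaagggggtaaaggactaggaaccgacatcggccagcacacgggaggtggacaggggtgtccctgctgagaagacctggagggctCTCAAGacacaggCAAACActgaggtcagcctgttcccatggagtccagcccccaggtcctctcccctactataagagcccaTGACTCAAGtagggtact
Sfta2: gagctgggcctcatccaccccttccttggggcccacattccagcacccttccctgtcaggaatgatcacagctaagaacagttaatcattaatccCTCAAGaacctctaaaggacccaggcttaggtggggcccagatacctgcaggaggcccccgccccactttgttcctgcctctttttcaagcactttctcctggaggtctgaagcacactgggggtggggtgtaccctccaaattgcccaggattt

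CTCAAG was found in each of the 3 promoters, once in Sftpa1 at −166 to −161 from the start site, once in Sfta2 at −155 to −150, and at 2 places in Sftpb, at −100 to −95 and at −15 to −10. It was present in 13.3% of the 32851 promoter windows of the same length in the table. CAAACA was matched in Sftpb at −87 to −82 and, on the other strand, at −223 to −218, and it was present in 5255 of all windows. TGACTCA was matched in Sftpb at −18 to −12, where it overlaps the nearer CTCAAG, and was present in 4.46% of all windows. TATAAA was matched in Sftpa1 at −30 to −25 and was present in 12.4% of all windows. The letters searched were chosen after the sequences had been seen, and a match describes the sequence and not the binding of a factor.

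Total counts per library ranged from 10184439 to 19483386. Krt8, the targeted gene, was counted at a mean of 523 CPM (counts scaled to the TMM-adjusted library total) on day 0 and 4026 CPM on day 7 in WT AECs. In KO AECs, its mean stayed between 29.5 and 38.2 CPM, and each library matched its genotype label. In freshly isolated cells, the AEC2 markers Lyz2, Lamp3, Abca3, Slc34a2, Etv5, and Cxcl15 summed to between 63554 and 72926 CPM. Club cell markers summed to between 5416 and 19310 CPM, fibroblast markers to between 290 and 974 CPM, ciliated cell markers to between 72.7 and 283 CPM, macrophage markers to at most 45.9 CPM, and endothelial markers to at most 29.5 CPM. In isolation 1, Xist, which was looked at after the values were seen, was at 62.4 to 79.5 CPM in WT libraries and at 5.91 to 11.9 CPM in KO libraries. It was at 42.6 to 154 CPM in WT and 51.1 to 100 CPM in KO libraries of isolation 2, and at most 2.24 CPM in isolation 3. The part of these differences in the comparisons of genotypes and isolations was not tested. These are bulk samples, in which fewer cells that express a gene and less of its RNA per cell cannot be told apart.

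To ask how much surfactant transcript the cells held when they were isolated, levels were compared per length as RPKM (CPM per kilobase of exon). Sftpc led with a mean of 180338 ± 33443 RPKM (SD, n = 3) in WT cells and took rank 1 of 55240 genes in each of the 6 day 0 libraries. Sftpa1 came next at 17275 ± 1698 RPKM and took rank 4 or 5. Sftpb followed at 4359 ± 561 RPKM, Sftpd at 1862 ± 239 RPKM, and Sfta2 at 209 ± 42.6 RPKM. The ranges of neighbors in this order did not overlap in either genotype. From gene to gene, the step down was 10.4-fold, 3.96-fold, 2.34-fold, and 8.92-fold in WT cells. Together, the 5 genes took 16.4% to 20.8% of all counts in WT libraries and 17.8% to 21.9% in KO libraries on day 0. The lowest and highest share over both genotypes were 1.68% and 8.56% after 1 day of culture. They were 0.0234% and 0.0678% after 3 days and 0.00493% and 0.0129% after 7 days.

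**Figure D1:**
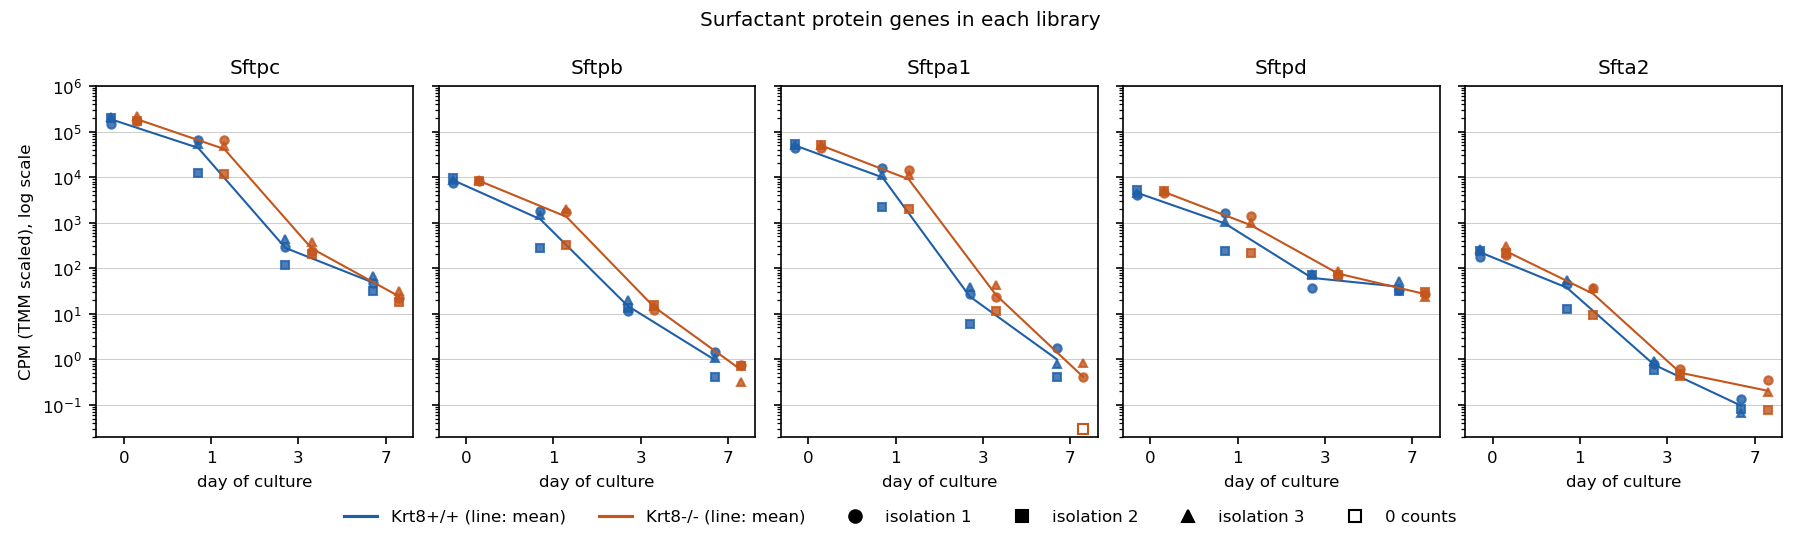
CPM of the 5 surfactant protein genes in each of the 24 libraries (log scale) by day of culture, with WT in blue, KO in orange, a marker shape for each isolation, and lines through the group means. All 5 genes run downward in both genotypes, and the isolation 2 squares lie below the others on day 1. On day 7, Sftpc still holds 18.0 to 67.3 CPM and Sftpd 23.3 to 53.2 CPM. The open square is a library with 0 counts.

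Sftpc, the precursor of the hydrophobic SP-C, was lost steeply and in each isolation. In WT AECs, it was at 147389, 198919, and 213102 CPM in isolations 1, 2, and 3 on day 0. On day 1, it was at 65975, 12160, and 53503 CPM. On day 3, it was at 287, 119, and 430 CPM, and on day 7 it was at 46.7, 32.1, and 67.3 CPM. No 2 of the 4 days overlapped. The mean on day 1 was 23.5% of day 0, and those on days 3 and 7 were 0.149% and 0.0261%. The log2 change from day 0 was −2.09 (SE 0.58) on day 1, −9.39 (SE 0.80) on day 3, and −11.90 (SE 0.88) on day 7, with edgeR adjusted p values of 0.00478, 8.32e-09, and 7.12e-10, respectively. In KO AECs, Sftpc was at 171009, 168496, and 220701 CPM on day 0 and at 64288, 11426, and 48205 CPM on day 1. It was at 236, 205, and 378 CPM on day 3 and at 22.6, 18.0, and 31.9 CPM on day 7. The KO cells also showed no overlap between days, with log2 changes of −2.18 (SE 0.58), −9.42 (SE 0.80), and −12.91 (SE 0.91).

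Sftpb, the precursor of SP-B, fell on each step and was near 1 CPM at the end of culture. In WT AECs, it was at 7387, 9565, and 8786 CPM on day 0, and at 1820, 284, and 1464 CPM on day 1. It was then at 11.7, 13.1, and 20.01 CPM on day 3 and at 1.43, 0.414, and 1.06 CPM on day 7, where the last 3 values rest on 21, 5, and 16 counts. Each day lay below the day before it without overlap. The log2 change from day 0 was −2.85 (SE 0.55, edgeR adjusted p = 0.000194) on day 1, −9.16 (SE 0.73, adjusted p = 3.31e-09) on day 3, and −13.07 (SE 0.87, adjusted p = 1.81e-10) on day 7. KO AECs held 8133, 8293, and 8421 CPM on day 0 and 1718, 327, and 1991 CPM on day 1. They held 12.3, 15.8, and 14.8 CPM on day 3, and 0.743, 0.700, and 0.319 CPM on day 7, again without overlap between days. The KO changes were −2.62 (SE 0.54), −9.18 (SE 0.73), and −13.76 (SE 0.89) on the log2 scale. Without isolation 2, the WT change on day 1 was −2.22.

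Sftpa1, which encodes the collectin SP-A, showed the largest fall of the 5 genes on days 3 and 7 in both genotypes. WT AECs held 43936, 53210, and 51075 CPM on day 0, 16226, 2193, and 11199 CPM on day 1, and 27.5, 5.83, and 38.5 CPM on day 3. By day 7, the values were 1.77, 0.414, and 0.795 CPM, from 26, 5, and 12 counts. The mean had fallen to 0.00201% of day 0. The log2 change was −2.32 (SE 0.72, edgeR adjusted p = 0.0100) on day 1, −11.01 (SE 1.05, adjusted p = 3.46e-08) on day 3, and −15.56 (SE 1.24, adjusted p = 2.05e-09) on day 7. In KO AECs, Sftpa1 was at 44620, 51365, and 51889 CPM on day 0 and at 14021, 2004, and 10911 CPM on day 1. It was at 23.5, 11.6, and 42.6 CPM on day 3. The 3 KO libraries of day 7 held 7, 0, and 13 counts, and the 0 of isolation 2, of 12768620 counts in all, allows up to 0.233 CPM (3 counts, counting error only). Days did not overlap in either genotype. The KO changes were −2.46 (SE 0.72), −10.90 (SE 1.05), and −16.78 (SE 1.304). Single isolations moved these values by more than 1.5 times. The WT change was −10.41 on day 3 without isolation 2 and −16.34 on day 7 without isolation 1, and the KO change on day 7 was −17.64 without isolation 3.

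Sftpd, the other collectin gene, fell with the rest on day 1 and showed the smallest fall of the 5 genes on days 3 and 7 in both genotypes. WT AECs held 3945, 5097, and 4461 CPM on day 0 and 1615, 242, and 1042 CPM on day 1. They held 36.6, 70.8, and 76.3 CPM on day 3, and 33.3, 31.2, and 53.2 CPM on day 7. The values of days 3 and 7 overlapped, whereas those of days 0, 1, and 3 did not. The mean was 1.36% of day 0 on day 3 and 0.871% on day 7. The log2 change from day 0 was −2.22 (SE 0.54, edgeR adjusted p = 0.00162), −6.20 (SE 0.64, adjusted p = 1.01e-07), and −6.84 (SE 0.66, adjusted p = 2.80e-08) on days 1, 3, and 7. KO AECs held 4408, 4905, and 4988 CPM on day 0 and 1427, 216, and 998 CPM on day 1. They held 70.9, 70.0, and 87.5 CPM on day 3, and 27.2, 30.2, and 23.3 CPM on day 7, with no overlap between days. From day 3 to day 7, the log2 change was −0.64 (SE 0.52, adjusted p = 0.564) in WT AECs and −1.50 (SE 0.53, adjusted p = 0.0788) in KO AECs. The KO change passed the test under 6 of 10 alternatives, over which the adjusted p ranged from 0.00112 to 0.460 (0.0468 with DESeq2). Without isolation 1, the day 1 change was −2.90 in WT and −3.03 in KO AECs.

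Sfta2, the least abundant of the 5 genes per length on day 0, was near the limit of counting after day 1. In WT AECs, it was at 176, 238, and 266 CPM on day 0, and at 45.3, 12.8, and 54.2 CPM on day 1. It was at 0.786, 0.583, and 0.907 CPM on day 3, from 12, 9, and 16 counts, and had 2, 1, and 1 counts on day 7. KO AECs held 191, 216, and 307 CPM on day 0, 35.9, 9.59, and 37.2 CPM on day 1, and 9, 8, and 6 counts on day 3. Their 6, 1, and 3 counts on day 7 make the difference between days 3 and 7 hard to measure at this depth. The log2 change from day 0 was −2.59 (SE 0.42), −8.20 (SE 0.59), and −11.08 (SE 0.74) in WT AECs, with edgeR adjusted p values of 3.49e-05, 1.01e-09, and 2.03e-10. The KO changes were −3.11 (SE 0.43), −8.85 (SE 0.62), and −10.05 (SE 0.68), the last of which was −10.78 without isolation 1.

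The members were also counted together. All 5 were lower on day 1 than on day 0 in WT AECs at an adjusted p below 0.05, as were 28.5% of the 18046 genes tested (edgeR quasi-likelihood test with Benjamini-Hochberg adjustment over all genes). All 5 were lower on day 3 (27.8% of genes tested) and on day 7 (30.2%). Their median log2 change was −2.32 on day 1, −9.16 on day 3, and −11.90 on day 7, whereas the median over all genes tested was 0 to 2 decimals at each of these times. In KO AECs, all 5 were lower on day 1 (26.9% of genes tested), day 3 (26.6%), and day 7 (29.9%), with medians of −2.46, −9.18, and −12.91. The 3 comparisons within a genotype share their day 0 libraries. Each of these falls was seen within 3 of 3 isolations.

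**Figure D2:**
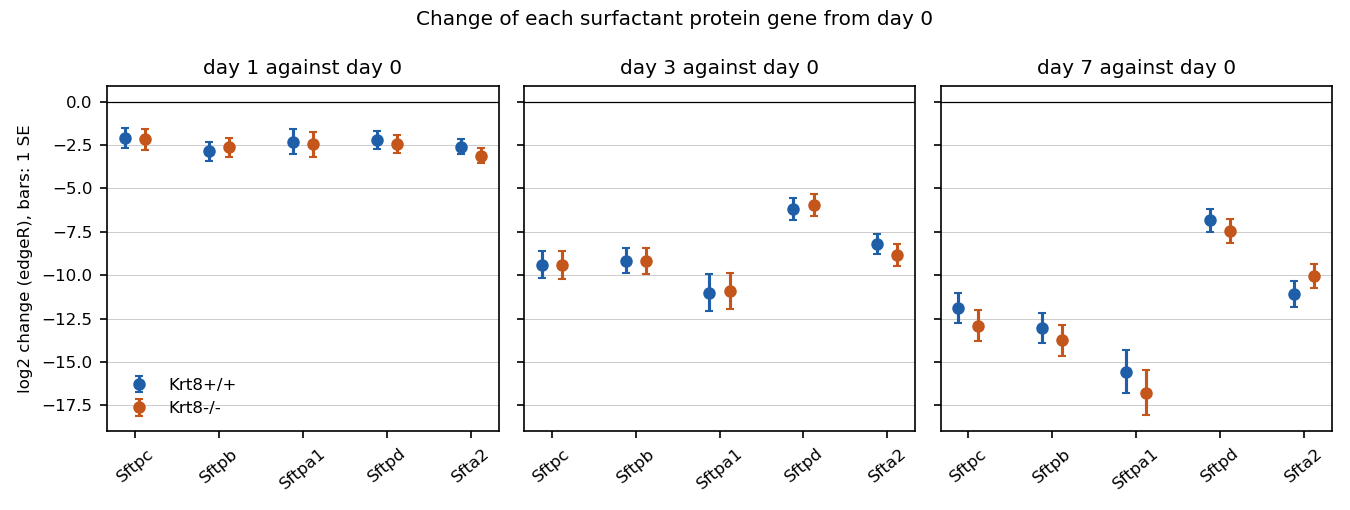
Log2 change of each gene from day 0 (edgeR, bars 1 SE, 3 libraries a group) on days 1, 3, and 7 in WT (blue) and KO (orange) AECs. The changes lie between −2.09 and −3.11 on day 1 and spread out to between −6.84 and −16.78 on day 7, with WT and KO side by side for each gene.

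The largest step was from day 1 to day 3. All 5 genes fell over it in WT AECs (11.9% of genes tested were lower), with log2 changes from −3.98 for Sftpd to −8.69 for Sftpa1. All 5 fell in KO AECs too (10.2% of genes tested), with changes from −3.53 for Sftpd to −8.44 for Sftpa1. Without isolation 1, Sftpd changed by −3.13 in WT and −2.95 in KO AECs, and Sftpb by −5.72 in WT AECs. From day 3 to day 7, 3 of the 5, Sftpa1, Sftpb, and Sftpc, fell further in WT AECs (3.47% of genes tested), with changes of −4.55, −3.90, and −2.51. The same 3 genes fell in KO AECs (6.15% of genes tested), with changes of −5.88, −4.59, and −3.49, and the alternatives gave 3 or 4 genes, the 4 including Sftpd. The WT count of this last step depended on single isolations, as it was 1 without isolation 1 (Sftpb, named after its value was seen), 4 without isolation 2, and 0 without isolation 3, and the Sftpa1 change was −5.14 without isolation 1 and −3.87 without isolation 3.

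Isolation 2 stood apart on day 1. There, Sftpc was 4.91-fold lower in isolation 2 than in the mean of the other 2 isolations in WT AECs and 4.92-fold lower in KO AECs. Sftpa1 was 6.25-fold and 6.22-fold lower, Sftpb 5.77-fold and 5.68-fold lower, Sftpd 5.49-fold and 5.61-fold lower, and Sfta2 3.89-fold and 3.81-fold lower, in WT and KO AECs, respectively. In both genotypes, isolation 2 was at no more than 0.25 of each other isolation for 4 of the 5 genes, all but Sfta2, as it was for 1.12% of the genes tested. On days 0, 3, and 7, none of the 5 met this rule, which 0.0720%, 0.177%, and 0.288% of the genes tested met. On day 0, isolation 2 was at 0.860 to 1.21 times the mean of the other isolations for these genes. The fresh cells of isolation 2 were not low in these genes.

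Several other AEC2 genes were also low in isolation 2 on day 1. In both genotypes, 3 of 6 AEC2 markers, Lyz2, Lamp3, and Cxcl15, were at no more than 0.25 of each other isolation there, as were 2 of 11 genes that process or recycle surfactant, Lamp3 and Napsa, against the 1.12% of genes tested. The AEC2 markers summed to 0.219 times the mean of the other isolations in WT and 0.224 times in KO AECs. Lyz2 made up most of this sum, at 4410 of 4723 CPM in isolation 2 of WT AECs. Lamp3, a lamellar body membrane protein, was at 1142, 67.8, and 599 CPM in isolations 1, 2, and 3 of WT AECs and at 934, 66.5, and 418 CPM in KO AECs. Abca3, the lipid transporter of lamellar bodies, was at 577, 65.0, and 327 CPM in WT and at 519, 89.6, and 212 CPM in KO AECs, where it did not meet the rule. Of 12 listed transcription factors of surfactant gene promoters, 0 met the rule in both genotypes. Their sum was 0.657 times the mean of the other isolations in WT and 0.803 times in KO AECs. They did not share one course. Nkx2-1, a lung epithelial factor, was at 56.3, 76.4, and 90.4 CPM in WT AECs, whereas Etv5 was at 214, 19.5, and 102 CPM. Markers of the transitional state between AEC2s and AEC1s summed to 5751, 6679, and 6046 CPM in WT AECs, 1.13 times the mean of the other isolations, and to 1.18 times in KO AECs. AEC1 markers summed to 962, 603, and 911 CPM in WT AECs. Club cell markers did not move one way, as their sum was 2.50 times that of the other isolations in WT and 1.47 times in KO AECs, with Scgb1a1, which club cells secrete, at 4513, 15572, and 7590 CPM and Cyp2f2, a club cell cytochrome, at 260, 55.5, and 119 CPM in WT AECs. Summed macrophage markers were at 179, 93.3, and 25.2 CPM and did not follow the members. What set isolation 2 apart was not tested. Without it, all 5 genes still fell on day 1, with log2 changes of −1.52 (Sftpc), −1.72 (Sftpa1), −2.22 (Sftpb), −1.59 (Sftpd), and −2.07 (Sfta2) in WT AECs and of −1.72 to −2.68 in KO AECs, where Sftpa1 changed by −1.87. Without isolation 3, Sftpa1 had an adjusted p of 0.0718 in WT AECs and 0.0609 in KO AECs, and without isolation 1, its WT change was −2.96.

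**Figure D3:**
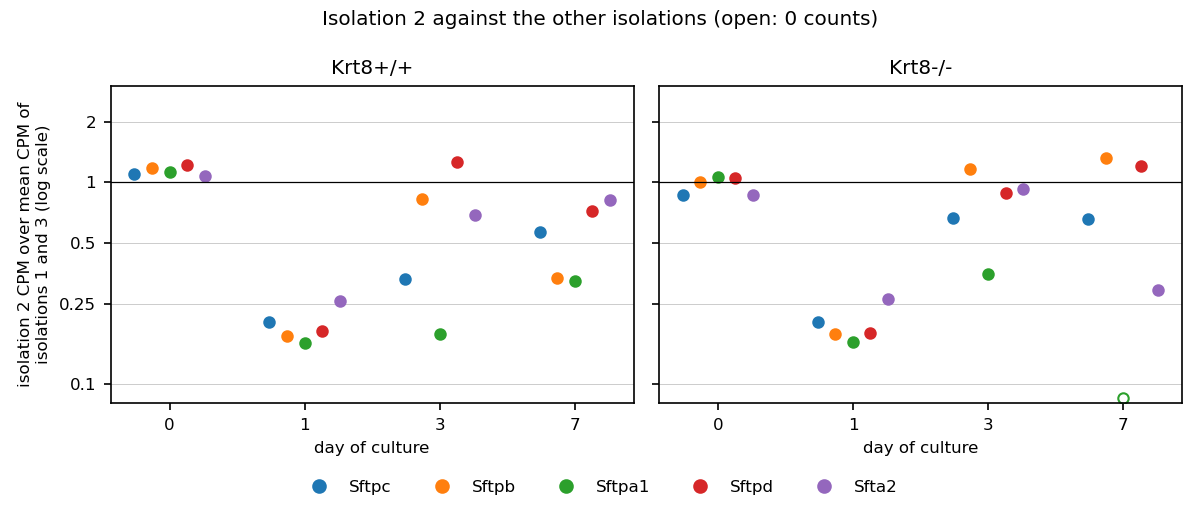
CPM of isolation 2 divided by the mean CPM of isolations 1 and 3 (log scale) for each gene, by day of culture and genotype. The 10 points of day 1 lie between 0.160 and 0.262, whereas those of day 0 lie between 0.860 and 1.21, and the open point is a library with 0 counts.

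To determine whether the genes fell to different degrees, the count ratio of each pair was taken within each library, which needs no scaling factor, and its log2 change from day 0 was compared by an exact 2-sided permutation test within genotype (400 arrangements, smallest possible p = 0.005, n = 6 libraries a day, adjusted over 30 comparisons). The 6 libraries of a day come from 3 isolation dates that both genotypes share, so they are not 6 independent replicates, and the test does not take this into account. On day 1, 5 of the 10 pairs changed unequally. Sftpc rose relative to each of the other 4 genes in that comparison, by 0.36 ± 0.27 (SD of 6 library pairs) against Sftpa1 (adjusted p = 0.0143) and by 0.67 ± 0.41 against Sftpb (adjusted p = 0.0143). The ratio of the collectins, Sftpa1 over Sftpd, changed by −0.10 ± 0.10 (adjusted p = 0.121). No pair moved by as much as 1 unit of log2 on day 1.

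By day 3, 9 of the 10 pairs had changed unequally, and by day 7, all 10 had. Sftpa1 over Sftpd moved by −5.11 ± 1.15 on day 3 and by −9.30 ± 1.51 on day 7, lower in both genotypes on 3 of 3 isolation dates each time (exact permutation, adjusted p = 0.00882 on day 7). Without isolation 2, the changes were −4.43 and −8.61. In counts, fresh WT cells held 10.4 to 11.4 Sftpa1 reads for each Sftpd read, and after 1 day of culture there were still 9.05 to 10.7. The range was 0.0832 to 0.751 after 3 days and 0.0159 to 0.0551 after 7. The 2 collectin genes, which had fallen together at first, came apart after day 1. Sftpc over Sftpa1 moved the other way, by 1.72 ± 0.57 on day 3 and by 4.03 ± 1.16 on day 7. Sftpc and Sftpb, the genes of the hydrophobic proteins, changed least against each other, by −0.32 ± 0.53 on day 3 (adjusted p = 0.310) and by 0.98 ± 0.64 on day 7. Ratios with Sfta2 on day 7 rest on 1 to 6 Sfta2 counts and on the count of 1 added to each value. With sign flips of the 6 differences from day 0 in place of the permutation (isolation as a block within each genotype only), 4 of the 24 pairs lost their call, namely Sftpc over Sftpb and Sftpb over Sftpd on day 1 (adjusted p = 0.0815 and 0.113) and the ratios of Sftpc and Sftpb to Sfta2 on day 3 (adjusted p = 0.0815 for both). Sign flips of whole isolation dates, 3 in all, could not give a p under 0.25.

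**Figure D4:**
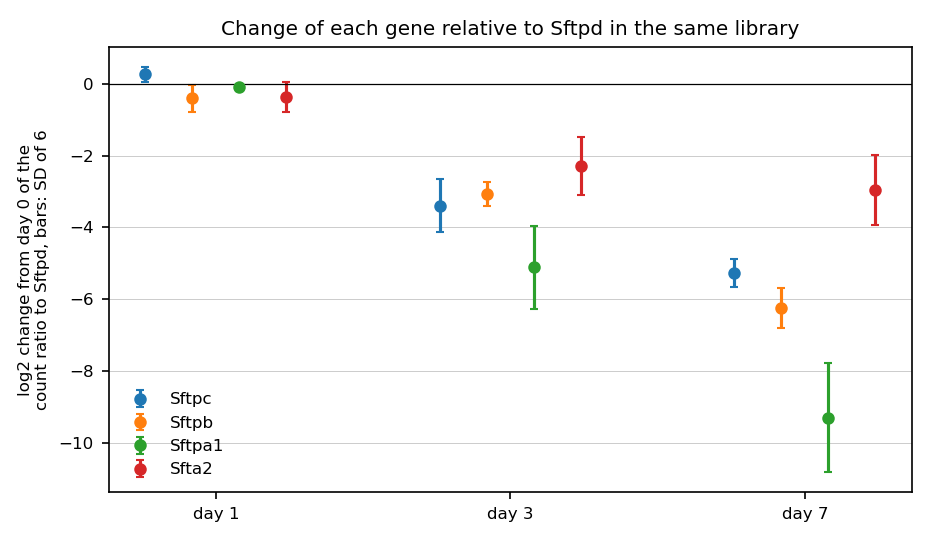
Log2 change from day 0 of the count ratio of each gene to Sftpd in the same library, as the mean of 6 library pairs (3 a genotype, from 3 shared isolation dates) with bars of 1 SD. The 4 points lie within 0.41 of 0 on day 1, and by day 7 Sftpa1 lies at −9.30, Sftpb at −6.25, Sftpc at −5.27, and Sfta2 at −2.96.

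The order of the levels per length also changed. On day 3, Sftpd had moved up to second, at 25.3 RPKM in WT and 31.5 RPKM in KO AECs, behind Sftpc at 269 and 264 RPKM. Sftpa1 and Sftpb overlapped at 8.37 and 7.59 RPKM in WT AECs. On day 7, Sftpc was at 47.1 RPKM and Sftpd at 16.2 RPKM in WT AECs, a 2.90-fold step where day 0 had shown Sftpc at 180338 and Sftpd at 1862 RPKM. In KO AECs, they were at 23.4 and 11.1 RPKM. The other 3 genes were all under 0.5 RPKM on day 7. Among all genes, Sftpc was still ranked between 815 and 3228 on day 7 and Sftpd between 2556 and 5203, whereas Sftpa1 was ranked between 13878 and 20621.

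Next, KO and WT AECs were compared on each day, since the study asked whether keratin 8 affects how AECs change in culture. No surfactant gene passed the test between KO and WT AECs on day 0 (edgeR, 0 of 5, with 0.0277% of genes tested past 0.05), day 1 (0 of 5, 0.0166%), day 3 (0 of 5, 0.0166%), or day 7 (0 of 5, 0.0166%). None had an unadjusted p below 0.05 on any day, and none passed with DESeq2. On day 7, Sftpa1, Sftpb, and Sfta2 held at most 26 counts a library, so only a large difference could have passed for them. On day 0, the differences lay between −0.05 and 0.08 on the log2 scale. The 95% interval of the Sftpc difference was −1.16 to 1.16, and that of Sftpb −1.11 to 1.01, so a 2-fold difference in either direction lay within both. The fit uses 1 spread per gene for all 8 groups, so these intervals do not measure the day 0 spread alone. It has no term for isolation, so they also hold differences between isolations that both genotypes share. Over the 5 genes and both genotypes, the SD of the 3 libraries was 1.74% to 25.8% of the mean on day 0. It was 56.5% to 72.0% on day 1. On day 0, club cell markers summed to 5416 to 11474 CPM in WT and 13853 to 19310 CPM in KO libraries, with 0 of 5 past the test. Their part in the day 0 differences was not tested. On day 1, the differences ran from −0.45 (Sfta2) to 0.18 (Sftpb), and on day 3 from −0.58 (Sfta2) to 0.31 (Sftpd).

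The differences reached further from 0 on day 7. The Sftpc difference, KO less WT, was −1.01 on the log2 scale (SE 0.57, 95% interval −2.21 to 0.18, edgeR adjusted p = 1), and it was lower in 3 of 3 isolations. The highest KO value, 31.9 CPM, lay just under the lowest WT value, 32.1 CPM. The Sftpd difference was −0.55 (SE 0.53, 95% interval −1.64 to 0.55, adjusted p = 1), also lower in 3 of 3 isolations. The ranges of the 3 libraries did not overlap for these 2 of the 5 genes on day 7, as for 5.54% of the genes tested, and overlapped for all 5 on day 0 (6.88% of genes tested did not overlap), day 1 (5.79%), and day 3 (11.0%). Sftpa1, Sftpb, and Sfta2 differed by −1.22 (SE 1.22), −0.75 (SE 0.89), and 1.10 (SE 1.40), from at most 26 counts a library. With each isolation left out in turn, the Sftpa1 difference ranged from −2.28 to −0.47, that of Sftpb from −1.20 to −0.39, that of Sftpd from −0.78 to −0.17, that of Sfta2 from 0.85 to 1.35, and that of Sftpc from −1.07 to −0.96. A joint test of the 4 days gave 0 of 5 genes (0.0277% of genes tested), with unadjusted p values of 0.549 to 0.929. The test of whether the genotype difference varied by day also gave 0 of 5 (0.00554% of genes tested), with unadjusted p values of 0.542 to 0.846.

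The genes that process and recycle surfactant were then set beside the members. Of a list of 12 such genes, 11 were tested, and Pgc, a protease listed for SP-B processing, was too low. In WT AECs, 9 of the 11 were lower on day 1, day 3, and day 7 against day 0, with median log2 changes of −2.05, −2.42, and −2.61. Of all genes tested, 28.5%, 27.8%, and 30.2% were lower on these days, and 4731, 4711, and 5158 of 18046 were higher. None of the 11 listed genes was higher on days 1 and 3, and Emc3 alone was higher on day 7, by 0.34 on the log2 scale. Slc34a2, the phosphate transporter of AEC2s, was at 14981 CPM on day 0 and changed by −9.04 on day 1, when the 5 members changed by −2.09 to −2.85. Lamp3 changed by −2.99 on day 1 and by −11.38 on day 7. Napsa, a protease that trims the SP-B and SP-C precursors, changed by −2.05, −6.59, and −7.25 on days 1, 3, and 7. Abca3 was at 2204 CPM on day 0 and 93.8 CPM on day 7, a log2 change of −4.55, and Ctsh, another protease of the precursors, was at 1359 and 267 CPM. Emc3, a membrane protein insertase subunit, and Ap3b1, an adaptor for lysosome-like organelles, were at 106 and 87.7 CPM on day 0 and at 134 and 97.6 CPM on day 7. In KO AECs, 8 of the 11 were lower on day 1, 8 on day 3, and 9 on day 7, and 1 was higher on day 3 and 2 on day 7. Of all genes tested, 26.9%, 26.6%, and 29.9% were lower on these days in KO AECs, and 4279, 4586, and 5162 of 18046 were higher. None of the 11 passed the test between genotypes on any day (edgeR), which 0.0166% to 0.0277% of genes tested passed on a day.

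Among 12 transcription factors known to act at surfactant gene promoters, 8 were lower and 1 was higher on day 1 in WT AECs, with a median log2 change of −1.25. Of all genes tested, 28.5% were lower and 4731 of 18046 were higher on that day. On day 3, 7 of the factors were lower and 2 higher, and on day 7, 9 were lower and 2 higher, with medians of −1.47 and −1.98. Of all genes tested, 27.8% and 30.2% were lower on these days, and 4711 and 5158 of 18046 were higher. From day 1 to day 3, 4 of the 12 factors were higher and 5 lower, where 2600 of 18046 genes tested were higher and 11.9% lower. Nkx2-1 changed by −2.99 on day 1, from 590 to 74.4 CPM, and then rose by 0.89 from day 1 to day 3 (edgeR adjusted p = 0.00214), to 138 CPM. Foxa2, a forkhead factor of the lung epithelium, rose by 0.77 over that step (adjusted p = 0.00954), whereas Foxa1 changed by −0.73 (adjusted p = 0.0207). Cebpa, which acts in AEC2 maturation, changed by −3.18 on day 1 and by a further −2.02 from day 1 to day 3. Etv5 changed by −4.01 and then by −2.37 over the same steps. Wwtr1, the coactivator TAZ, was 1.22 higher on day 7, and Nfib 0.49 higher. The part of these factors in the course of the 5 genes was not tested. In KO AECs, 8 factors were lower and 1 was higher on day 1, and 10 were lower and 2 higher on day 7. Of all genes tested, 26.9% and 29.9% were lower on these days in KO AECs, and 4279 and 5162 of 18046 were higher. None of the 12 passed the test between genotypes on any day (edgeR), which 0.0166% to 0.0277% of genes tested passed on a day.

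**Figure D5:**
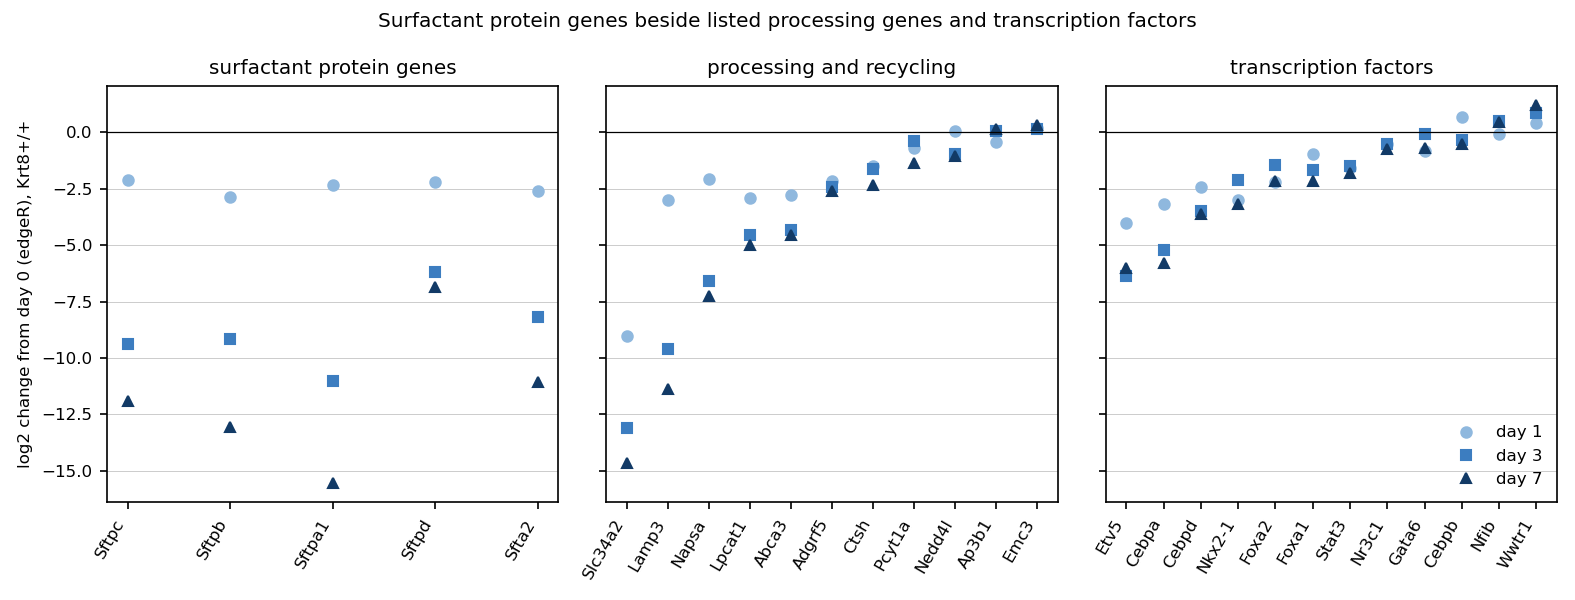
Log2 change from day 0 in WT AECs (edgeR, 3 libraries a group) on days 1, 3, and 7 for the 5 surfactant protein genes, 11 processing and recycling genes, and 12 transcription factors. The members reach −6.84 to −15.56 on day 7. Slc34a2, Lamp3, and Napsa lie in the same range, and none of the 12 factors goes below −6.38.

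Genes that encode relatives of the surfactant proteins did not share one course. Of 5 other collectin genes, 3 were tested, and 1, Mbl1, a serum mannose-binding lectin, was lower on day 1 in WT AECs, from 4.36 to 0.239 CPM, and listed at 0 on days 3 and 7. On both of these days, 2 of the 3 were lower and none higher. Of all genes tested in WT AECs, 28.5%, 27.8%, and 30.2% were lower on days 1, 3, and 7, and 4731, 4711, and 5158 of 18046 were higher. Colec12, a collectin scavenger receptor, was at 27.9 CPM on day 0 and 34.6 CPM on day 7. Psap, the precursor of the saposins, which share a fold with SP-B, was at 183 CPM on day 0 and 804 CPM on day 7 in WT AECs and was 1 of 2 saposin-like genes that were both higher on days 3 and 7. Of 8 genes of the BRICHOS family, whose shared domain SP-C carries, 4 were tested. All 4 were lower in WT AECs on days 1, 3, and 7, with median log2 changes of −1.83, −2.08, and −1.81, led in abundance by Itm2b at 1432 CPM on day 0 and 397 CPM on day 7.

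The genes whose course over the 24 libraries was most like that of each member were found by the root mean square difference of log2 CPM, each relative to its own WT day 0 mean, among 9618 genes with at least 10 CPM on WT day 0. Sftpc was nearest to Ces1d, a carboxylesterase, at 1.00, to C6, a complement component, at 1.01, and to Lamp3 at 1.06. Sftpa1 was nearest to the lung chemokine Cxcl15 at 1.43, to the chitinase Chia1 at 2.13, and to C6 at 2.52. Sftpb was nearest to Cxcl15 at 0.815, Chia1 at 1.09, and the club cell cytochrome Cyp2f2 at 1.13. Sftpd had the closest company, with the glutathione transferase Gstt1 at 0.388, Napsa at 0.393, and Car8, a carbonic anhydrase-related protein, at 0.395. Sfta2 was nearest to the phospholipase Pla2g1b at 0.605, the paraoxonase Pon1 at 0.627, and the class II histocompatibility gene H2-Aa at 0.682. For comparison, the median over all candidates was 4.76 for Sftpd and 9.87 for Sftpa1. Between members, Sftpc and Sftpb were the nearest pair at 0.727, and Sftpa1 and Sftpd the farthest at 5.28. The libraries share isolations and days, and the prior count of 2 bounds how far a low gene can fall.

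Finally, markers of other cells were read beside the members. Club cells can also make SP-A, SP-B, and SP-D. In WT AECs, 3 of 5 club cell markers were lower on day 1 than on day 0, with a median log2 change of −2.52. On days 3 and 7, 5 of 5 were lower. Of all genes tested, 28.5%, 27.8%, and 30.2% were lower on days 1, 3, and 7. The tally of club cell markers in KO AECs was the same, with a median of −3.29 on day 1, against 26.9%, 26.6%, and 29.9% of genes tested. The 3 lower on day 1 were Scgb3a2, Cyp2f2, and Cldn10, which changed by −3.43, −3.27, and −2.52 in WT AECs. Scgb1a1 was at 5974, 9225, 854, and 12.2 CPM on days 0, 1, 3, and 7, with a log2 change of 0.63 on day 1 (edgeR adjusted p = 0.234), when each of the 5 surfactant genes was lower. In KO AECs, it was at 12939, 8814, 965, and 13.2 CPM. On day 7, when Sftpd was at 39.2 CPM in WT AECs, the 5 club markers summed to between 9.996 and 14.9 CPM, the macrophage markers to between 9.20 and 133 CPM, and the fibroblast markers to between 867 and 1802 CPM. The fibroblast markers did not move one way, as 2 of 5 were higher and 2 lower than on day 0. Of all genes tested, 5158 of 18046 were higher and 30.2% lower. Col1a1 was at 53.9 CPM on day 0 and 521 CPM on day 7, and Dcn at 211 and 18.5 CPM. The listed epithelial markers did not move one way either. Epcam and Cdh1 were at 227 and 766 CPM on day 7 in WT AECs, against 344 and 1092 CPM on day 0. Krt18 was at 3276 CPM on day 7, against 285 CPM on day 0. The part of the makeup of the cultures in the course of the 5 genes was not tested.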

How the data were processed

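The deposited file is 1 table of raw counts, not normalized, with a row for each gene and a column for each of the 24 libraries. The submitters' processing notes name cutadapt 2.3, STAR 2.7.8a, RSEM 1.3.3, and GRCm38, without saying what each did. Which program made the counts is not given in the sources used here, and if it was RSEM they are estimated counts rounded to whole numbers. Symbols came from GENCODE M21 (55240 of 55421 identifiers), and 5 reporter entries held 0 counts. Promoters came from RefSeq.

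Low genes were removed by filterByExpr at a min.count of 10 and a min.total.count of 15. This kept 18046 genes, with all 5 members among them. They were scaled with TMM and fitted in R 4.3.3 with edgeR 4.0.16 as 1 quasi-likelihood model of 8 groups (16 residual degrees of freedom). P values were adjusted by Benjamini-Hochberg over all genes tested, with a threshold of 0.05. DESeq2 1.42.0 was an alternative. CPM used the TMM-scaled totals, and RPKM the union of the annotated exons. Total counts ran from 10184439 to 19483386, and a count of 0 allows up to 3 counts. The members and lists were chosen with earlier results of these data known. Named genes were the members, Krt8, genes of the lists, and the 3 genes most like each member.

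Each sample title ends in 1 of 3 date codes that all groups share. The codes were read here as isolation dates, numbered 1 to 3, and on this reading they pair the libraries. Between paired libraries, the deviations from the group mean correlated at 0.0295 to 0.365 for each day against day 0 and at 0.0573 to 0.548 between genotypes. Library pairs within a group were not duplicates (chi-square per gene 10.2 to 123 over 24 pairs). Nothing says how many animals an isolation pooled, so whether the spread between libraries is that between animals is not known. The main edgeR fit has no term for isolation and treats the 24 libraries as independent, though WT and KO libraries share 3 dates. Its p values measure the spread of libraries within groups. Differences between dates that both genotypes share are part of the SE of each genotype difference. On simulated counts for WT day 1 against day 0, edgeR recovered 89 of 177 changed genes (66.7% of 4-fold and 36.5% of 2-fold changes), with 1 call of an unchanged gene among 15880 genes. All simulated libraries had the WT day 0 means, apart from the changed genes in WT day 1, and no isolation effect was set. In the data, 9874 of 18046 genes passed in this comparison, so these rates do not carry over to it.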

Additional observations from a re-analysis of the deposited data

How the results depend on the processing

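Over 50 results (5 genes in 10 comparisons of days), 498 values under the alternatives gave 481 calls as reported, 8 lost calls, 9 gained calls, and no reversed direction. The number of members lower on day 7 than on day 3 in WT AECs ranged from 0 to 4 when each isolation was left out, against 3 as reported. Library totals alone moved the median of all genes against day 0 by 0.43 to 0.60, and totals without the 5 members by 0.12 to 0.30. With totals alone, the WT changes on day 3 were −8.75 (Sftpc), −10.37 (Sftpa1), −8.54 (Sftpb), −5.59 (Sftpd), and −7.58 (Sfta2). Sftpc on day 1 in WT AECs had an adjusted p of 0.0535 with only the libraries compared in the fit, which gave no joint tests and no Sfta2 value for day 7 against day 3 or between genotypes on day 7. Sfta2 passed from day 3 to day 7 in WT AECs with DESeq2 (adjusted p = 0.0107) and with no filter (0.0479). Sftpd passed from day 3 to day 7 in KO AECs under 6 of 10 alternatives, so the number of members was 3 or 4. Ratios without 1 isolation cannot pass 0.05 and were taken as values.

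Isolation as a replicate block changed the call of no member between days or genotypes, and the 4 ratios that lost their call with the block within each genotype are given above. With the block, 2 factors were higher on day 1 in KO AECs (1 as reported), 1 collectin was higher on day 3 in WT AECs (0 as reported), and 2 saposin-like genes were higher on day 1 in WT AECs (1 as reported). With DESeq2, 2 factors were higher on day 1 in WT AECs and 2 in KO AECs (1 as reported in each), and 2 saposin-like genes were higher on day 1 in WT AECs. The cause of these changes was not tested.

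Genotype differences (KO less WT, log2) changed sign only where they were near 0, with adjusted p of 0.99996 or 1. For Sftpc on day 0, the difference was −0.0080 with DESeq2 size factors, −0.0097 with DESeq2, and −0.051 with the block, and on day 3 it was 0.091 with the block. For Sftpa1 on day 0, it was 0.010 with library totals alone, 0.014 with totals without the members, 0.00098 with no filter, and 0.016 with only the libraries compared. With each isolation left out in turn, the day 0 differences ranged from −0.082 to 0.11 (Sftpc), −0.016 to 0.016 (Sftpa1), −0.13 to 0.025 (Sftpb), and −0.023 to 0.16 (Sfta2). Sftpb on day 1 ranged from −0.043 to 0.41. On day 3, the ranges were −0.25 to 0.12 (Sftpc), −0.022 to 0.28 (Sftpa1), and −0.25 to 0.18 (Sftpb).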
